A study of Mus musculus with 8 samples.

Results

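Places on the mouse genome where FOS regions crowd together were examined in microglia of the cortex. A FOS region here is an interval of the deposited table that holds a peak of the merged FOS list. The FOS regions were sorted by chromosome and centre and joined into a chain wherever the next centre lay 12.5 kb or less away, and chains of 6 or more regions were kept. The rule chose 507 chains with 3910 of the 31473 FOS regions (12.4%), in a table of 32773 regions in all. The chains were selected on the positions of FOS peaks, so their number, crowding and length are descriptions with no test. The remaining 27563 FOS regions lay in no chain, and 11387 of them had no other FOS region within 12.5 kb.

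The mice were at postnatal day 30 and had been injected with the cytokine IL-33 into a cerebral ventricle on 1 side, 4 h before they were killed. Microglia were sorted by flow cytometry from the cortex, and chromatin bound by FOS was precipitated and sequenced, with a FOS library and an input library from each of 4 mice. All libraries came from IL-33-injected mice, and no library of an uninjected or vehicle-injected mouse was analysed here. The sources used here state neither strain nor genotype.

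FOS is a subunit of AP-1, a family of leucine zipper dimers in which FOS pairs with a JUN protein and binds short DNA elements in promoters and enhancers. Its gene is switched on quickly by cytokines, microbial products and neuronal activity. Enhancers of genes that are strongly used in a cell type often lie in crowded groups, and stitching together binding sites that lie within a set distance is a usual way to find such groups. IL-33 is released by injured or stressed cells and acts through the receptor encoded by Il1rl1, the adaptor MYD88 and IRAK kinases, as interleukin-1 does.

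The values behind each region are a FOS score, a number of calls and whether the region is shared. The score is the deposited statistic, restored to the FOS peaks of the region. The sources used here do not state its scale, and it therefore ranks regions within this table only. The number of calls, 1 to 4, ends each FOS peak name and was taken to be how many of the 4 FOS libraries had that peak, an inference from its range. A shared region also holds a peak of a second deposited list, named for IL-33 against vehicle and called the IL-33 list, whose assay and libraries the sources used here do not state. An IL-33-only region holds a peak of that list and no FOS peak. The table has no value per library, so depth is unknown and no value has a replicate error. The scores come from a sorted population and cannot tell a site bound in more cells from a site bound more strongly in each.

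The sequences shown first are promoters where a chain carries a FOS region directly on a gene's start and the DNA there holds the AP-1 element TGANTCA, in which N is any base. The element reads the same on both strands and was searched as such. The promoters are the 300 bases from 250 before to 50 after the start, from RefSeq on GRCm38.p6. Of 68 different genes on the lists described further on that a chain overlapped, 46 had promoters in the RefSeq table, with 53 windows. The element stood in 6 of these 53 windows (11.3%, 95% exact Clopper-Pearson interval 4.27 to 23.0). Among the 35 of these windows touched by a chain region, the element stood in 6 (17.1%, interval 6.56 to 33.65). It stood in 27 of 407 promoters touched by a chain region (6.63%), in 351 of 6655 touched by any FOS region (5.27%) and in 2565 of all 32851 promoters (7.81%). Capitals mark the element in the 4 promoters below that held it inside a FOS region. The fifth, of Cx3cr1, held none and is shown for contrast because its chain had the highest scores per region among the chains described.
Tlr9: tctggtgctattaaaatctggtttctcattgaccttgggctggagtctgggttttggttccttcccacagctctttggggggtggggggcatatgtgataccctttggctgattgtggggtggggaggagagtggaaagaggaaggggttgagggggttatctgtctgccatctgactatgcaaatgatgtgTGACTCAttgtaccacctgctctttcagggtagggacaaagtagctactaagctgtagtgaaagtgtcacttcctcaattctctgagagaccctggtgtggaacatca
Ccl9: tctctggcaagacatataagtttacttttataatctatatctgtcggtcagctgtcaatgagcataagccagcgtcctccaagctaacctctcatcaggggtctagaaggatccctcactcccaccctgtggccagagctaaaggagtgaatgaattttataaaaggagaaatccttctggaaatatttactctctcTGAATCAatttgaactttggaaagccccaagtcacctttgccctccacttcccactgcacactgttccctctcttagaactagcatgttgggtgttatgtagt
Cxcl10: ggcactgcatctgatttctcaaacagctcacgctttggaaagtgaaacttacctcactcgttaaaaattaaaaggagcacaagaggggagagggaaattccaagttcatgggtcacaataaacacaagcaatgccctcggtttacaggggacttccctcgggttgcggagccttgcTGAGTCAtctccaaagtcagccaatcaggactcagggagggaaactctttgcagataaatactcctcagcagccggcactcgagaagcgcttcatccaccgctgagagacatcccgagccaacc
Nfkbie: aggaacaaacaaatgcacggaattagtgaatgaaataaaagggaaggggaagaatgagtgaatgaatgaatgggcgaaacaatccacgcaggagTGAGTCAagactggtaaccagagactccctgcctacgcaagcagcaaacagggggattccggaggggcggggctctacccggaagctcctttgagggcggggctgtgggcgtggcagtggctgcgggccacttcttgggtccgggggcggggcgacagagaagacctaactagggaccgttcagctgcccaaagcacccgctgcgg
Cx3cr1: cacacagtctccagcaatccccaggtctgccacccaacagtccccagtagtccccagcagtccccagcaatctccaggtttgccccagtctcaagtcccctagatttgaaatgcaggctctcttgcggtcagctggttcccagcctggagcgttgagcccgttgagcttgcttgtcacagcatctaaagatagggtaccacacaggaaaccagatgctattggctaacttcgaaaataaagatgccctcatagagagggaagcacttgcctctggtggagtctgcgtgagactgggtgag

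The Tlr9 promoter, chr9:106222348-106222647 on the plus strand, held TGACTCA at -58 from the start, 26 bp from the centre of a region with score 65.6 and 4 calls. Tlr9 encodes the endosomal receptor for unmethylated CpG DNA. The Ccl9 promoter, chr11:83578587-83578886 on the minus strand, held TGAATCA at -53, 131 bp from the centre of a region with score 64.2 and 4 calls. Ccl9 encodes a chemokine of myeloid cells. The Cxcl10 promoter, chr5:92348840-92349139 on the minus strand, held TGAGTCA at -74, 78 bp from the centre of a region with score 39.8 and 3 calls, and Cxcl10 encodes an interferon-induced chemokine. The Nfkbie promoter, chr17:45555450-45555749 on the plus strand, held TGAGTCA at -156, 20 bp from the centre of a region with score 34.3 and 3 calls, and its product is an inhibitor of NF-kappaB. The Cx3cr1 promoter, chr9:120068247-120068546 on the minus strand, was touched by a region with score 54.9 and 3 calls. The Il1a and Cybb promoters held the element outside the FOS region that touched them, and that region had 1 call in each. These are matches of letters and not measured binding sites.

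A chain also covered a microRNA cluster on chromosome 8, shown because its members are processed from 1 transcript. Chains contained 20 of the 1005 miRNA hairpins of the RefSeq table, in 14 chains. The chain of 7 regions with a summed score of 241 beside Zswim4 held the hairpins of miR-23a, miR-27a and miR-24-2. The nearest FOS region, chr8:84207784-84208122, had score 29.4 and 4 calls and lay 602, 762 and 915 bp from the hairpins. Capitals mark the seed, bases 2 to 8, of the mature strands printed here from RefSeq, and the seeds of miR-23a-3p and miR-27a-3p begin with the same letters, UCACA.
mmu-miR-23a-3p: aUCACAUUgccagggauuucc
mmu-miR-27a-3p: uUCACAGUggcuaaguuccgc
mmu-miR-24-3p: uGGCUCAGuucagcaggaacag

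Most chains were compact and moderately sized, and a few were very long. A chain held a median of 7 regions and at most 18, and 168 of the 507 had exactly 6. The span from the first to the last base had a median of 36074 bp, from 14915 bp at Csk to 107508 bp at Capzb. Together the chains covered 19.6 Mb, or 0.729% of the 2691 Mb between the outermost annotated genes of the chromosomes, and held 17.0% of the summed FOS score. Within chains, neighbouring centres lay a median of 5536 bp apart, and 2943 of 3403 such distances (86.5%) were 10000 bp or less. Chains were found on every chromosome except Y. Their number per 10 Mb ran from 0.586 on chromosome X to 3.44 on chromosome 11.

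Regions inside chains carried more calls and higher scores than FOS regions elsewhere. Of chain regions, 1442 of 3910 (36.9%, interval 35.4 to 38.4) had 4 calls, against 5772 of 27563 (20.9%, 20.5 to 21.4) in no chain, 1637 of 11387 (14.4%, 13.7 to 15.03) with no neighbour and 22.9% of all FOS regions. Single calls made up 26.4% of chain regions and 41.6% of regions in no chain. The median score was 27.8 in chains, with quartiles of 19.6 and 38.8, against 19.2 in no chain and 15.2 for regions with no neighbour. Among regions of 4 calls alone the median score was 41.3 in chains and 34.2 in no chain. These intervals are exact binomial intervals and cover counting error only, and the regions of a chain share a place and are not independent.

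A single call can come from 1 library, and single-call regions had a few fixed widths. Of single-call regions with no IL-33 peak, 58.2% in chains were 270 bp wide, against 51.1% in no chain. The sources used here do not state whether a width stands for a library, and its part in the chains was not tested.

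Overlap with the IL-33 list was also more frequent in chains. A peak of that list was held by 349 of 3910 chain regions (8.93%, interval 8.05 to 9.86), against 1199 of 27563 regions in no chain (4.35%, 4.11 to 4.60), 2.20% of regions with no neighbour and 4.92% of all FOS regions. Chains thus held 349 of the 1548 shared regions of the table (22.5%). In addition, 333 of the 1300 IL-33-only regions (25.6%) lay within the span of a chain. At least 1 shared region was present in 200 chains, at least 3 in 36 and at least 5 in 9.

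The size of the difference depended on the number of calls. Among single-call regions, 5.04% were shared in chains (interval 3.79 to 6.56) and 1.34% in no chain (1.14 to 1.57). Among regions of 2 calls the shares were 6.24% in chains and 2.67% in no chain, and among regions of 3 calls they were 9.16% in chains and 5.35% in no chain. Among regions of 4 calls, 12.97% were shared in chains (11.3 to 14.8) and 11.2% in no chain (10.4 to 12.02), and these intervals overlap. The ratio of the shares therefore shrank with each added call. The intervals treat regions as independent, which regions of a chain are not, so their overlap or separation is no test.

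**Figure D1:**
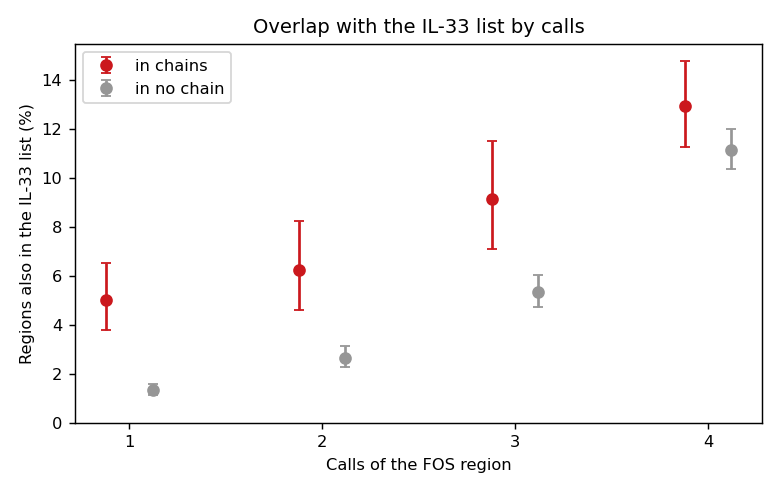
Share of FOS regions that also hold a peak of the IL-33 list (y axis, percent) by number of calls (x axis), for regions in chains (red) and in no chain (grey). Bars are exact 95% binomial intervals, which cover counting error only and treat regions of a chain as independent. The red and grey bars are apart at 1, 2 and 3 calls and overlap at 4, which is no test.

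Position relative to gene starts differed as well. A start lay within 1000 bp of the centre for 483 of 3797 chain regions (12.7%), against 23.0% of regions in no chain and 26.3% of regions with no neighbour. Among regions of 4 calls it did so for 10.9% in chains and 19.3% in no chain. Few regions at starts were shared in either class, at 6 of 483 in chains (1.24%) and 22 of 6143 in no chain (0.358%). More than 1000 bp from a start and with 4 calls, 14.4% were shared in chains (interval 12.5 to 16.5) and 13.6% in no chain (12.6 to 14.6). The body of a coding gene contained 61.0% of chain regions and 58.5% of regions in no chain.

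Calls and scores were mostly higher where more regions were joined, and runs of 5 and chains of 6 had similar values. The share with 4 calls was 14.4% for regions with no neighbour, 21.8% in pairs, 33.4% in runs of 5, 33.6% in chains of 6 and 42.7% in chains of 13 to 18. The median score was 15.2, 19.6, 26.4, 25.9 and 30.8 in the same 5 classes. The shared percentage was 2.20, 4.65, 8.80, 7.24 and 11.7 in these classes, and the intervals of runs of 5 and chains of 6 overlapped. It did not climb evenly among chains, with 7.88% in chains of 7, 11.3% in chains of 8, 10.2% in chains of 9 and 8.49% in chains of 10 to 12.

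**Figure D2:**
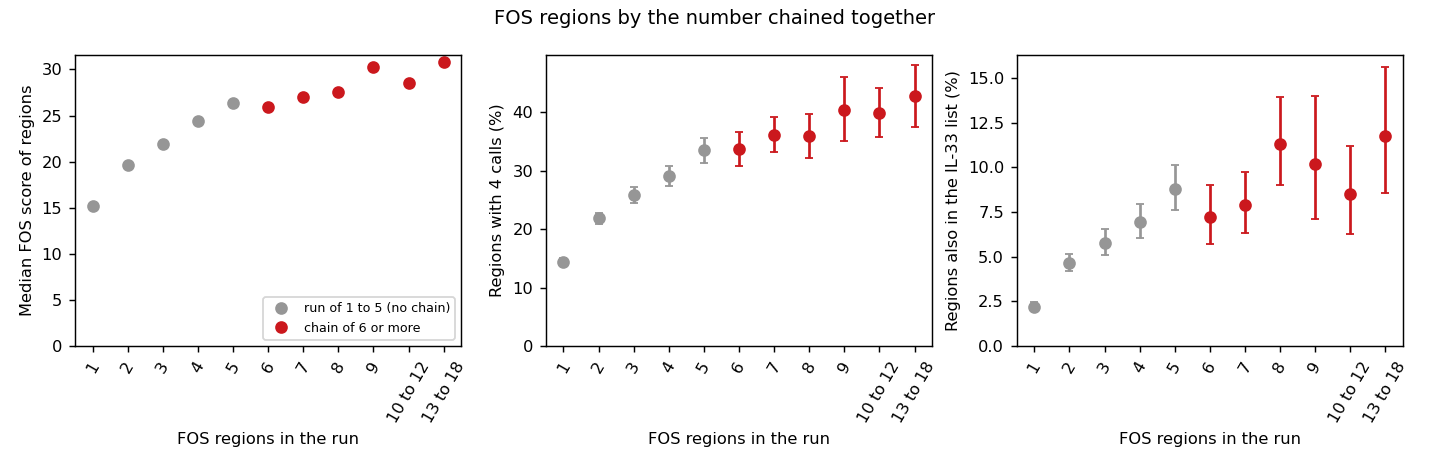
FOS regions by the number joined into a run within 12.5 kb (x axis, runs of 1 to 5 in grey, chains of 6 or more in red): median FOS score (left), percent with 4 calls (middle) and percent also in the IL-33 list (right). Bars are exact 95% binomial intervals; the 3 measures are lowest for regions with no neighbour and highest in the chains of 13 to 18, and the bars of runs of 5 and chains of 6 overlap.

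The summed scores just inside and outside the thresholds overlapped. Among chains of 6 regions, the highest summed scores were 386 at C3ar1 and Necap1, 368 on chromosome 7 between Eed and Picalm and 364 at Il1a, and the lowest were 79.5 at Eepd1, 59.9 and 49.2. Runs of 5 regions that were not kept reached 364 beside Cebpb, 362 at Plekhg2, Zfp36 and Med29 and 310 at Abca1. The largest distances that were joined were 12.5 kb, 12492 bp and 12490 bp, and the smallest distances that ended a chain were 12532 bp at Lgmn, 12544 bp at Itgav and 12546 bp near Ctsc.

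Chains mixed strong and weak regions. Every number of calls from 1 to 4 occurred in 238 of the 507 chains, 35 chains had no region of 4 calls, and 1 chain, at Cd83, had only regions of 4 calls. The summed score of a chain had a median of 219.5, from 49.2 to 758. The highest region gave a median of 22.5% of its chain's sum and at most 57.8%, at Cadm1. It had 4 calls in 411 chains, was the first or last region in 112 and was shared in 42.

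**Figure D3:**
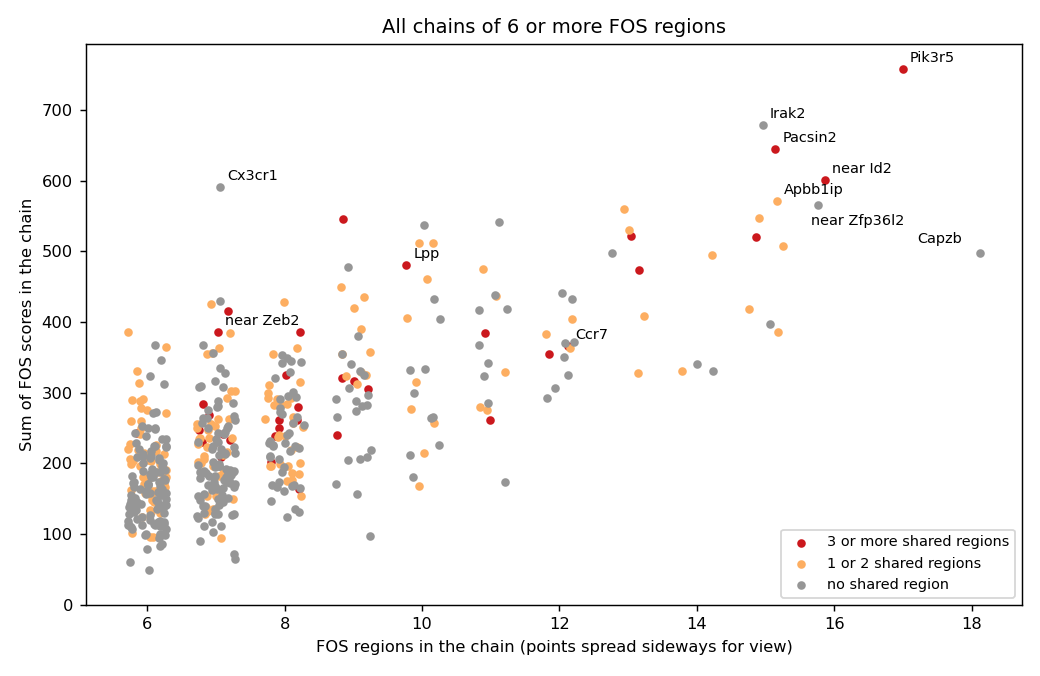
Each of the 507 chains by its number of FOS regions (x axis, points spread sideways) and the sum of their FOS scores (y axis, deposited scale), coloured by the number of regions shared with the IL-33 list. Pik3r5 is highest at 758 with 17 regions, Cx3cr1 reaches 590.2 with 7, and Capzb has the most regions, 18, with a sum of 497.

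The chain with the highest summed score, 758, covered Pik3r5 and Pik3r6 on chromosome 11 (chr11:68430485-68521742, mm10). Both genes encode regulatory subunits of the phosphoinositide 3-kinase whose catalytic subunit is the product of Pik3cg. Its 17 regions had, in genomic order, scores of 43.0, 46.5, 24.2, 26.8, 116, 37.3, 63.1, 83.7, 60.4, 31.0, 21.9, 19.4, 33.5, 71.8, 24.4, 28.4 and 26.1. The highest stood inside Pik3r5 and was 1 of 8 with 4 calls. The sixth, the seventh and the eighth, also inside Pik3r5, were shared, and 8 IL-33-only regions lay within the span. Pik3r6 contained the region of 71.8 and 3 weaker ones.

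Pik3cg itself lay under a shorter chain on chromosome 12 (chr12:32182918-32215475) with more sharing. Its 8 regions had scores of 37.8, 35.8, 35.9, 40.4, 46.9, 36.1, 45.7 and 46.2, a narrow range beside the Pik3r5 chain. The first 5, all inside the gene, were shared, 6 regions had 4 calls, and 6 IL-33-only regions lay within the span.

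The chain second in summed score, 678.5, ran over Vhl, Irak2 and Tatdn2 on chromosome 6 (chr6:113623990-113714676). Irak2 encodes a kinase that receptors of the interleukin-1 family recruit through MYD88, and Vhl the ubiquitin ligase subunit that marks hypoxia-inducible factors for decay. Its 15 regions had scores of 24.0, 47.3, 33.2, 77.4, 63.2, 52.9, 33.7, 66.3, 67.2, 68.5, 34.0, 12.6, 33.1, 23.4 and 41.6. Irak2 contained 9 of them, including the 7 between 34.0 and 77.4 that had 4 calls. None of the 15 was shared, and 4 IL-33-only regions lay between them.

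Pacsin2, which encodes a membrane-bending protein of endocytosis, contained all 15 regions of the third chain (chr15:83407220-83464531, sum 645). The scores were 45.9, 37.6, 64.5, 54.6, 41.6, 39.3, 47.8, 39.9, 42.5, 30.2, 61.1, 39.6, 37.8, 36.4 and 25.8, an even series with no dominant region. Sharing was confined to the first 6 places, where 5 of 6 regions were shared. The deposited scores summed to 515, since the deposited statistic is averaged with IL-33 peaks in shared regions.

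Few but strong regions made up the chain at Cx3cr1 (chr9:120027922-120068476). It had 7 regions with scores of 27.1, 86.1, 88.2, 109.9, 98.2, 126 and 54.9, a sum of 590.2 and a median of 88.2. Cx3cr1 encodes the fractalkine receptor through which neurons signal to microglia. The 5 highest had 4 calls, and 2 of them, at 98.2 and 126, stood inside the gene. No region was shared, although 7 IL-33-only regions lay within the chain's span. The chain over Csf1r on chromosome 18, the gene of the receptor that microglia need to survive, had 9 regions with a sum of 325.5 and a top score of 105 inside Csf1r. Neighbouring Pdgfrb, a mural cell gene, contained 2 regions of that chain, at most 31.2.

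The Cd14 chain and the Tnfrsf1b chain were named for their summed scores, which rank among the 15 highest. Cd14, the co-receptor for lipopolysaccharide, shared a chain of 11 regions on chromosome 18 with Tmco6, Ndufa2, Ik and Wdr55 (sum 541). Its scores were 54.0, 71.2, 88.6, 37.3, 63.6, 77.3, 35.3, 38.3, 25.4, 34.6 and 15.7. The first 7 regions all had 4 calls, and the sixth stood inside Cd14. Tnfrsf1b, a receptor for TNF, and its neighbour Tnfrsf8, which encodes CD30, shared a chain of 15 regions with a sum of 521. Its highest regions, at 73.4, 66.9 and 59.6, lay between the genes or in Tnfrsf8, and 4 of the 15 were shared.

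The TNF cluster on chromosome 17 (chr17:35164578-35219937) had 13 regions with a sum of 560.2 over Prrc2a, Aif1, Lst1, Ltb, Tnf and Lta. Tnf, Lta and Ltb encode cytokines of the TNF family, and Aif1 encodes IBA1, a common microglial marker. The scores were 46.4, 38.8, 36.3, 34.4, 36.4, 43.3, 31.2, 39.3, 35.3, 45.5, 55.2, 55.6 and 62.5, close to each other. Tnf contained a region of 35.3 with 1 call, and the region of 45.5 with 4 calls touched its promoter. The 3 highest lay at the end of the chain, and 1 of these, at 55.2, was shared.

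Socs3, whose product stops JAK and STAT signalling by cytokine receptors, lay with Pgs1 under a short and strong chain on chromosome 11 (chr11:117959950-117993859, sum 545). Its 9 regions had scores of 93.6, 48.8, 66.9, 56.8, 35.4, 44.8, 54.0, 100.3 and 44.6, and 7 had 4 calls. The highest regions were the first, outside the genes, and the eighth, inside Pgs1. Socs3 itself contained the region of 66.9, and 3 regions between the genes were shared. Tnfaip3, the gene of A20, an enzyme that dampens NF-kappaB, had a chain of 11 regions beginning 18277 bp away, with scores from 12.4 to 64.0, a sum of 385 and 4 shared regions.

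Many regions or a long span did not always come with high scores. The chain at Capzb, which encodes a subunit of the actin capping protein, had the most regions, 18, and 11 of them lay inside the gene. The 18 were weak and had few calls. Their scores ran from 16.4 to 48.0 with a median of 23.6, 2 had 4 calls and none was shared. The Rcsd1 chain had 15 regions, 10 of them inside the gene, from 6.40 to 46.7 over 90839 bp, and again none was shared. The chain at Apbb1ip, whose product links the GTPase RAP1 to integrins, had 15 regions, 12 of them inside the gene. Its sum was 571, with scores from 10.2 to 65.4 and 2 shared. Pdgfb, Rpl3 and Syngr1 lay under a chain of 15 regions with a sum of 507 and 1 shared.

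The chains at Lpp, Elmo1 and Rhoq were among those named for having the most shared regions, so their sharing is a description. Lpp, which encodes an adaptor of cell adhesions, had 10 regions with scores of 23.5, 63.0, 38.1, 19.4, 51.3, 48.4, 55.6, 92.0, 59.3 and 29.9, and 6 of the 10 were shared. The region of 92.0, the highest, was not. Elmo1, which acts with DOCK proteins in engulfment of apoptotic cells, had 12 regions from 15.3 to 42.3, and 5 were shared. Most chains over other phagocytosis genes held few: none of 8 regions was shared at Itgb2, none of 11 at Itgb3 and 1 of 8 at Itgam. Rhoq and Atp6v1e2 shared a weak chain of 9 regions, from 15.7 to 44.6, in which 6 were shared.

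Ccr7, the receptor that guides dendritic cells to lymph nodes, lay under the chain with most shared regions. A chain that overlapped no coding gene, with Id2 the nearest, had as many. The Ccr7 chain (chr11:99132285-99189460) had 12 regions with scores of 28.2, 22.6, 10.9, 9.75, 15.5, 33.2, 30.03, 14.4, 27.8, 48.7, 40.8 and 84.2, and 7 were shared. None of the centres fell inside Ccr7, and the highest region, the last, was not shared.

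Of the 507 chains, 71 overlapped no coding gene, and several of these ranked high. A non-coding gene was overlapped by 51 of the 71 (71.8%). The chain at chr12:25142269-25220498 lay 46177 bp from Id2, which encodes an inhibitor of helix-loop-helix factors, and more than 1 Mb from Rnf144a. Its 16 regions had scores of 25.6, 30.5, 25.4, 14.4, 28.7, 35.2, 36.6, 24.1, 42.1, 24.7, 44.0, 61.9, 45.8, 76.0, 61.4 and 24.0, and 11 had 4 calls. The 7 shared regions were spread along it, and the strongest regions lay towards its end. A chain of 16 regions, 55297 bp from Zfp36l2, which encodes a protein of cytokine mRNA decay, had scores from 14.8 to 58.6 and a sum of 566. It held neither a shared nor an IL-33-only region. A chain of 15 regions, 51177 bp from Marcks, the gene of an actin-binding kinase substrate, had scores from 10.1 to 82.6 and a sum of 547, with 1 shared.

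Zeb2, a transcription factor gene of microglial identity, had an end 1470 bp from a chain with 6 of its 7 regions shared (chr2:44953009-44982042). The scores were 54.0, 99.9, 66.0, 35.2, 12.4, 49.8 and 68.4, and the region of 12.4 with 1 call was the exception. A further 5 IL-33-only regions lay within this chain. Between Wwox and Maf, 39583 bp from Wwox, a chain of 9 regions from 15.1 to 73.2 held 5 shared regions, 4 of which had fewer than 4 calls.

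The other chains chosen by score, span or lack of a coding gene filled the range between these. Lgmn, the gene of a lysosomal protease, had 10 regions with scores of 14.4, 21.9, 58.0, 30.2, 58.8, 46.9, 72.2, 91.0, 92.8 and 50.6 (sum 537). Lgmn contained the first 4, the stronger ones followed outside it, and none was shared. The Plekho2 chain had 13 regions from 14.2 to 100.5 with a sum of 530.3, 7 of 4 calls and 2 shared. Plekho2 contained 5 of the 13, and the region of 100.5 lay outside it. A chain of 11 regions on chromosome 10, 54715 bp from Reep3, had scores from 15.1 to 71.5 and a sum of 439, with no shared region.

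**Figure D4:**
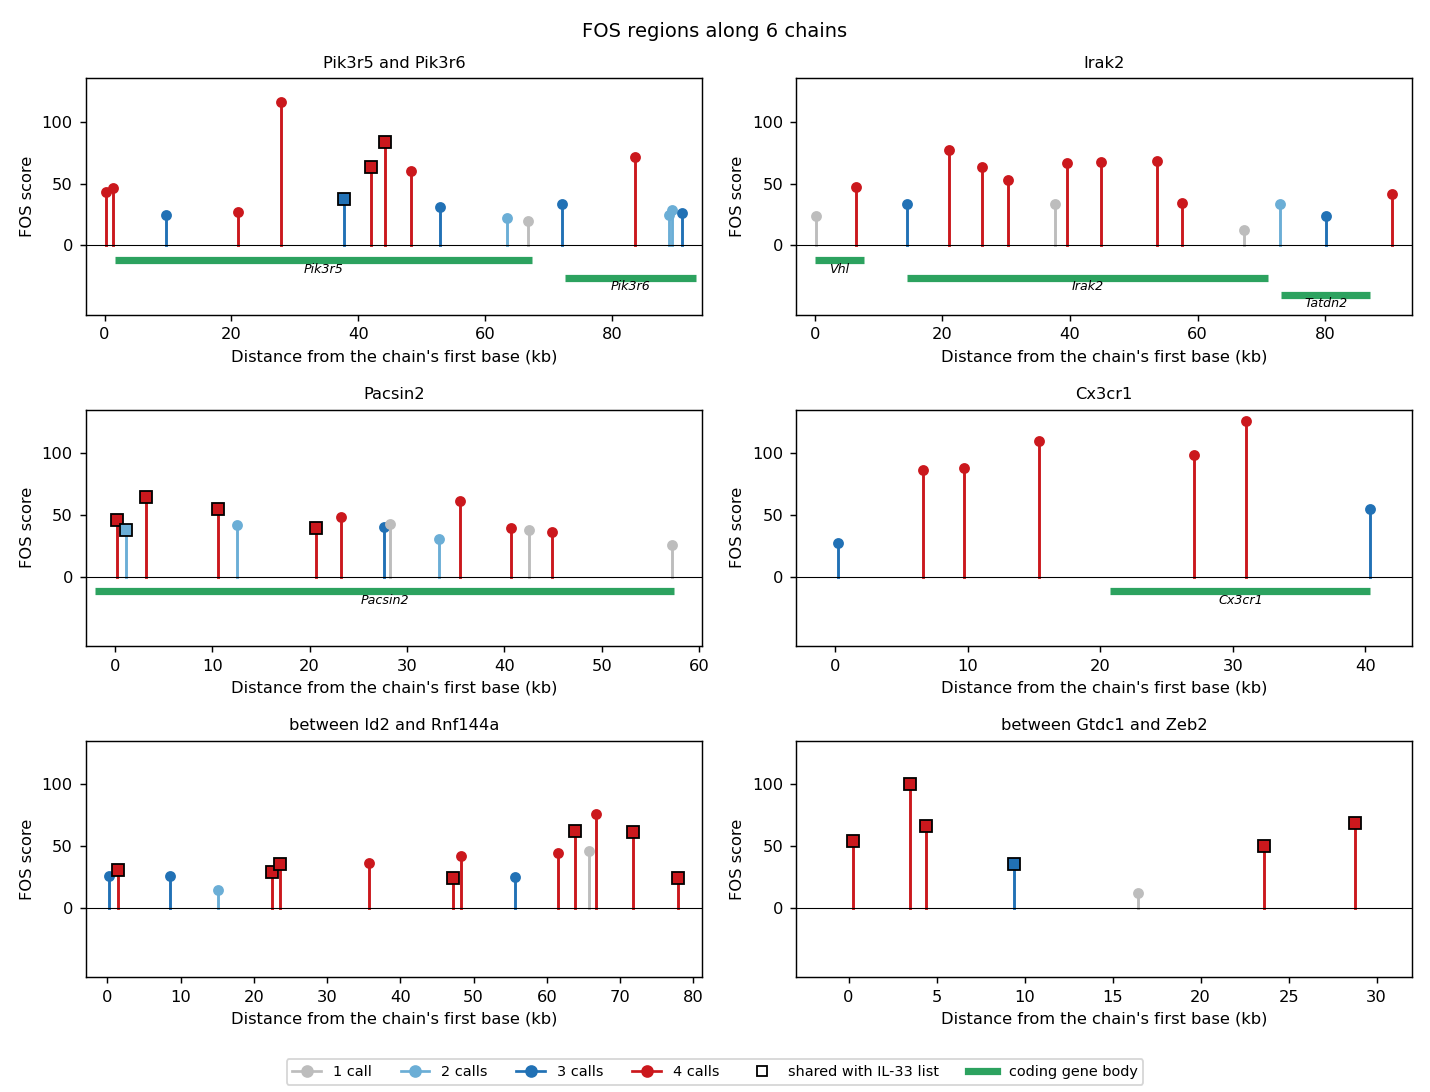
FOS regions along 6 chains: distance from the chain's first base (x axis, kb) and FOS score (y axis, deposited scale), coloured by number of calls, with squares for regions shared with the IL-33 list and green bars for coding genes. Scores peak at 116 in the Pik3r5 chain and at 126 in the Cx3cr1 chain; the Pacsin2 chain is even, and squares mark 6 of 7 regions near Zeb2 and none at Irak2 or Cx3cr1.

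A chain overlapped the body of 710 of 21883 coding genes (3.24%). These genes were longer than usual, with a median length of 26452 bp against 17170 bp for all coding genes, and the part of length in the counts below was not tested. A single coding gene was overlapped by 269 chains, 167 overlapped 2 or more, and 121 lay wholly inside a gene. The lists below were chosen with earlier results of these data known, so their counts describe and do not test.

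Inflammatory genes were often overlapped. Of the cytokines and chemokines, 12 of 29 were (41.4%), beside 3.24% of all coding genes. They were Il1a, Il10, Il12b, Il18, Tnf, Ccl2, Ccl3, Ccl4, Ccl7, Ccl9, Cxcl10 and Cxcl16. The chain of Ccl3 and Ccl4, which encode inflammatory chemokines, had 10 regions with a sum of 512 and a top score of 121. The Ccl9 chain had a sum of 512 with 7 regions of 4 calls, and the Il1a chain a top score of 129. The Ccl2 and Ccl7 chain had 9 regions, 6 with 4 calls and 3 shared, but no centre inside either gene. Counted by a region centre inside the gene, 6 of the 29 were covered. The chains of Il1a, Il12b, Ccl7 and Cxcl10 only touched an end of the gene, with no centre inside.

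Sensors and signalling proteins were overlapped at shares from 25% to 31.2%, beside 3.24% of all coding genes. Of the pattern recognition receptors, 10 of 32 were overlapped, Tlr1, Tlr5, Tlr7, Tlr9, Cd14, Nod2, Nlrp3, Aim2, Scarb1 and Stab1. The Nlrp3 chain, over the sensor that forms the inflammasome, had 11 regions with a sum of 342, and the Nod2 chain 9 with a sum of 331. Of the NF-kappaB genes, 6 of 22 were overlapped, Rela, Nfkb1, Nfkbie, Bcl3, Tnip1 and Traf1, and Bcl3 had 4 shared regions among 8. Of the IL-33 receptor and MYD88 genes, 5 of 20 were, Il1rl1, Myd88, Irak2, Irak3 and Map3k8. Apart from Irak2 these chains were weak, with sums of 126 at Il1rl1, 117 at Irak3, 137 at Map3k8 and 149 at Myd88, all below the median chain. The Map3k8 chain only touched an end of that gene. By a region centre inside the gene, the counts were 9 pattern recognition receptors, 5 NF-kappaB genes and 4 IL-33 receptor and MYD88 genes.

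Identity transcription factors and phagocytosis genes had shares of 35.0% and 37.0%, next after the cytokine list. The share of all coding genes, for these and the other lists here, was 3.24%. Of the identity transcription factors, 7 of 20 were overlapped, Spi1, Irf8, Cebpa, Smad3, Etv6, Ets1 and Fli1. Etv6, an ETS repressor, had 3 chains with 21 regions inside the gene, 12 of 4 calls and 6 shared. Smad3, which carries TGF-beta signals to the nucleus, had 13 regions with a sum of 521, and 12 of them lay inside the gene. The chain at Spi1, which encodes PU.1, the factor that myeloid cells depend on, had 6 regions with a sum of 346. Spi1 contained 4 of them. Of the homeostatic genes, 6 of 25 were overlapped, Cx3cr1, Tmem119, Csf1r, Itgam, Itgb5 and Entpd1. Tmem119, a marker that sets microglia apart from other macrophages, shared a chain of 10 regions with Sart3 and Iscu. Of the 10, 1 had 4 calls, and Tmem119 contained only another, at 22.2. Entpd1, which encodes an enzyme that breaks down extracellular ATP, contained all 12 regions of its chain, of which 8 had 4 calls. P2ry12, also a microglial marker, was not overlapped. Of the phagocytosis genes, 10 of 27 were overlapped, 5 of them integrins, and of the activated microglia genes 4 of 24.

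Regulators of the early response were overlapped at lower shares than the cytokine list, with 2 or 3 genes per list. The share of all coding genes was 3.24%. Of the AP-1 subunit and partner genes, 2 of 22 were overlapped, Batf3 and Bach2, and Fos lay within 10000 bp of a chain. Of the immediate early genes 3 of 20 were, Nr4a1, Ier5 and Btg2, and of the feedback genes 3 of 18, Dusp2, Socs3 and Spred1. With chains of at least 8 regions the counts were 1 AP-1 gene, 2 immediate early genes and 1 feedback gene. The Nr4a1 chain had 6 regions and none with 4 calls. The AP-1 list had the smallest share of the microglial and inflammatory lists, at 9.09%, and the feedback list the same share as the activated microglia list, at 16.7%.

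Markers of other cells that a brain sort could hold were overlapped at shares from 0 to 8.33% per list, with at most 1 gene in each. The share of all coding genes was 3.24%. None of 20 neuron markers and none of 20 markers of monocytes, neutrophils and lymphocytes were. The exceptions in the other lists were Slc1a2 among 12 astrocyte markers, Mbp among 12 oligodendrocyte markers, Pdgfrb among 14 endothelial and mural markers and Stab1 among 12 markers of border-associated macrophages. The Slc1a2 chain had 6 regions with a sum of 113 and the Mbp chain 7 with a sum of 170.5, both below the median chain, and 3 regions of each had 4 calls. The other exceptions lay above the median chain of 219.5. The Stab1 chain had 6 regions with a sum of 227.4, of which 4 had 4 calls and 1 was shared. Stab1 contained its top region, at 59.4, and is also counted among the pattern recognition receptors. The Pdgfrb chain, which also covers Csf1r, had a sum of 325.5. Whether other cells contributed to any of these chains was not tested.

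**Figure D5:**
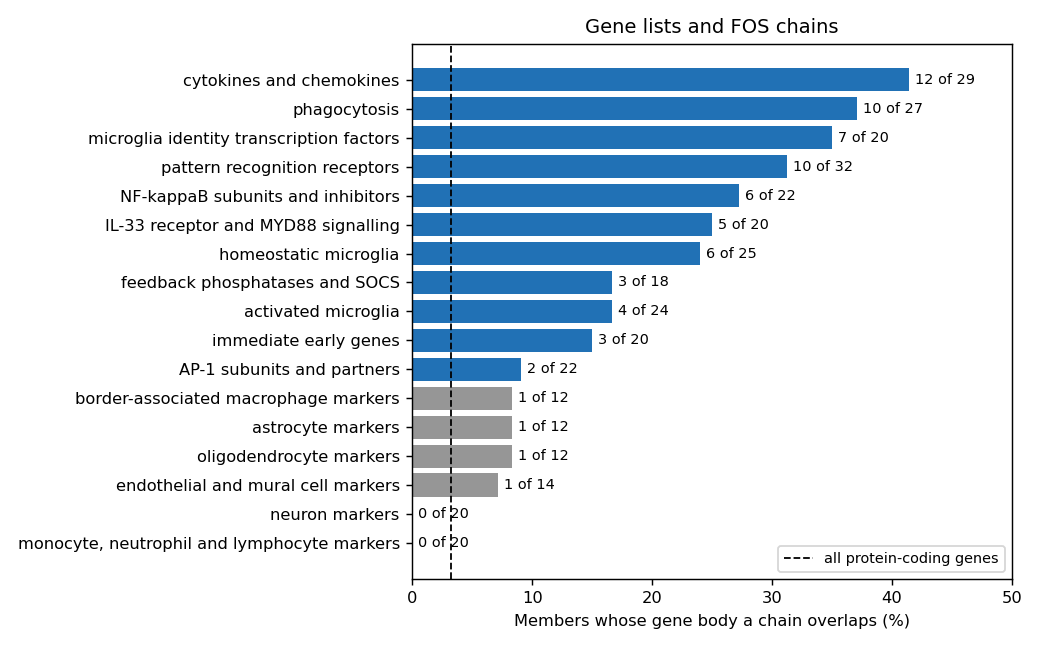
Percent of the members of each gene list whose body a chain overlaps (x axis), with counts beside the bars, for lists of microglial and inflammatory genes (blue) and of other cells (grey). The dashed line is the 3.24% of all coding genes; cytokines and chemokines reach 12 of 29 and neuron markers 0 of 20.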

How the data were processed

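Chromatin from sorted cortical microglia of 4 mice gave 4 FOS and 4 input libraries. Reads were handled with Bowtie2 and HOMER on mm10 (GRCm38), per the submitters' processing notes. How peaks were called, and what the inputs served for, is left unstated by the sources used here. The authors deposited 1 table of 10 columns in which, per the file headers, HOMER mergePeaks had joined the merged FOS list with the IL-33 list. Its score, in the authors' deposited table, is a mean over all joined peaks. IL-33-only regions score 0, so it was multiplied by the number of joined peaks and divided by the number of FOS peaks. The deposited count of joined peaks was used in this way. No value per library exists in the table, so no test, replicate error or paired analysis was made, and shares have exact Clopper-Pearson 95% intervals.

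Chains were built in Python 3.11.15 with pandas 2.3.3, NumPy 2.4.6 and SciPy 1.17.1, and the chaining was tested on simulated positions. Gene bodies, promoters and miRNAs came from RefSeq tables of GRCm38.p6. Start-site shares leave out chromosome 18, for which no start sites were used here. The chains, gene lists and comparisons were chosen with earlier results of these data known. Chains described by region are the 15 highest in summed score, the 10 with most regions, the 5 longest, the 10 with most shared regions and the 5 largest without a coding gene. Chains were also named for list genes they overlap and, 3 on each side, at the thresholds. The chains at Csk, Cd83 and Cadm1 were picked after their values were seen, as were the miRNA cluster and the promoters printed. Alternatives changed the distance, the fewest regions, the regions chained, the score and the assignment to genes.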

Additional observations from a re-analysis of the deposited data

How the results depend on the processing

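The number of chains was 5, 304, 700 and 1257 at distances of 5000, 10000, 15000 and 25000 bp, against 507 at 12.5 kb. The share of FOS regions in chains was 0.0985%, 6.99%, 17.9% and 36.8% at these distances, and the median span 13928, 28774, 42054 and 64113 bp. The 5 chains at 5000 bp held 31 regions, so shares at that distance rest on few members. The share of chain regions with an IL-33 peak was 3.23% at 5000 bp, 10% at 10000 bp and 7.83% at 25000 bp. The share with 4 calls was 54.8% at 5000 bp and 32.3% at 25000 bp, and the median score 31.4, 28.4 and 25.4 at 5000, 10000 and 25000 bp. Of chains at 5000 bp, 20% held a shared region and 100% overlapped a coding gene; 90.8% did so at 25000 bp.

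With at least 5, 8 or 10 regions there were 900, 194 and 74 chains, with 18.7%, 5.996% and 2.83% of FOS regions, median spans of 28944, 46580 and 60330 bp, and 34.3%, 49.0% and 52.7% of chains with a shared region. At 8 regions the shared percentage of chain regions was 10.4, that of 4 calls 39.1 and the median score 28.8. At 10 regions 41.0% had 4 calls, the median score was 29.6, and 91.9% of chains overlapped a coding gene.

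Chaining regions of 2 or more calls gave 180 chains with 4.11% of FOS regions, a median span of 34322 bp, 12.8% shared, 53.9% with 4 calls, a median score of 35.2 and 49.4% of chains with a shared region. Chaining regions of 4 calls alone gave 13 chains with 0.286% of FOS regions, 27.8% shared, a median score of 47.9, 76.9% of chains with a shared region and 92.3% over a coding gene. Chaining all regions of the table gave 14.7% of FOS regions in chains, 11.5% shared, 39.1% with 4 calls, a median score of 28.5, a median span of 33807 bp and 45.9% of chains with a shared region. Measuring between edges put 13.3% of FOS regions in chains. The median deposited score was 25.8. Chaining by calls leaves out regions of fewer calls beforehand. Its shared percentages, 4-call share and median scores are therefore not like for like with those of the main rule. Other causes were not tested.

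Of 51 list counts recomputed, 39 stayed within 1.5 times the value given, among them the neuron and blood cell lists, which were 0 throughout. Most of the other 12 came from asking for at least 8 regions. There the IL-33 receptor and MYD88 count fell from 5 to 1, NF-kappaB from 6 to 3 and pattern recognition receptors from 10 to 5. Phagocytosis fell from 10 to 6, identity factors from 7 to 4 and activated microglia from 4 to 1. Cytokines, from 12 to 9, and homeostatic genes, from 6 to 4, stayed within the factor. The highest summed score as deposited was 678.5, at Irak2 in place of Pik3r5. No paired analysis was possible because the table has no value per library, so no replicate could be left out either. Depth per library is unknown.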

Other observations

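Chains built from regions of 4 calls alone were looked at after the values above were seen. There were 13, each with 6 to 8 regions. Each had to overlap a chain of the wider rule, because its members are FOS regions joined at the same distance. They lay at Socs3, Irak2, Cd14, Cd83, Pacsin2, Plekho2, Lpp, Tns3, Rubcnl, Cd300a, Frmd4b and Pik3cg, with 1 on chromosome 15 away from coding genes. The Socs3 chain of this kind had the highest summed score, 452, and the Pik3cg chain the lowest, 251. The Pacsin2, Lpp and Pik3cg chains had 4 shared regions each, while those at Irak2, Cd14 and Tns3 had none. Cd83, which encodes a surface protein of activated antigen-presenting cells, kept all 7 regions of its chain, with a sum of 415 and 3 shared.

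The tightest chains, joined within 5000 bp and also looked at afterwards, lay at other genes. There were 5, at Csk, Nfatc2, Tmigd3 with Adora3, Pilra and Slc15a4, with spans from 12916 to 17621 bp and sums from 140 to 220.0. Csk encodes the kinase that inhibits Src family kinases, and Slc15a4 a transporter of endolysosomes. Among all chains the densest lay at Git2 and Ankrd13a, with 4.09 regions per 10 kb, and 1 chain on chromosome 13 overlapped 10 histone genes. The strongest single region of any chain stood inside Fyb, at 131. At Cadm1 a single region of 87.2 made up 57.8% of the chain's sum.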
